A study of Homo sapiens with 4 samples.

Results

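The 10 genes described here belong to the cellular response to low oxygen: the hypoxia-inducible factor genes HIF1A and EPAS1, and 8 genes induced in hypoxia, NDUFA4L2, CA9, VEGFA, ADM, EGLN3, BNIP3, ANKRD37 and NDRG1. They were selected on the FPKM of the same 4 libraries, with differences between knockout and wild type already known, and were then found by symbol, so those differences are given as a description without a test. Each symbol stood on 1 line, and the 10 genes are 10 of 57979 genes with values and 10 of 13246 with an average above 1 FPKM, which were the genes tested. FPKM is fragments scaled by transcript length and by the number of mapped fragments, so levels of different genes can be compared per length. Polyadenylated RNA was sequenced from cells labelled HepG2, a human liver tumour line, in 4 libraries, 2 of them wild type and 2 with a CRISPR-Cas9 knockout of TXNDC9, a thioredoxin domain protein. Both groups were cultured in DMEM with fetal bovine serum. The study's methods list a pair of guides in a lentiviral vector, and its protein blots used sorted HepG2 cells that carried Cas9 with a guide, or the vector alone. Whether the sequenced cells were those, which of the guides they carried, whether they were 1 clone or a pool, and the oxygen tension in culture are not given in the sources used here.

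In oxygenated cells, prolyl hydroxylases of the EGLN family modify the HIF-α proteins encoded by HIF1A and EPAS1, and the VHL ubiquitin ligase complex then marks them for degradation. In low oxygen the α subunits persist, pair with ARNT and bind genes that hold the core letters ACGTG or GCGTG. Regulation of the α subunits is thus largely at the protein level, which RNA libraries do not measure. The induced genes serve glucose use, vessel growth, pH balance and the removal or retuning of mitochondria, and the pathway is often active in liver tumours.

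The labels were checked first. TXNDC9 stood at 35.1 and 37.3 FPKM in wild type, against 21.9 and 27.6 FPKM in knockout, and its log2 fold change of -0.55 (SE 0.14, adjusted p = 0.0145, limma with Benjamini-Hochberg adjustment) did not meet the call used here, an adjusted p under 0.01 with a change of at least 2-fold. The data went against the labelled cell type: 9 of 9 hepatocyte lineage markers were below 1 FPKM in every library, with summed levels of 0.446 to 0.733 FPKM in wild type and 0.0479 to 0.174 FPKM in knockout. APOA1 was listed at 0 in all 4 libraries, and AFP, the highest of the list, reached 0.449 FPKM. Of 13 markers of other liver cell types, 6 were tested. The summed levels of all 13 were 2351 and 4126 FPKM in wild type, against 572 and 602 FPKM in knockout, nearly all of it KRT7. KRT7, a keratin of simple epithelia, fell with a log2 fold change of -2.49 (adjusted p = 0.00109, limma with Benjamini-Hochberg adjustment), while KRT19 did not exceed 0.312 FPKM. CDH5, a cadherin of endothelium, rose to 4.26 and 3.14 FPKM, but the endothelial markers PECAM1 and VWF did not exceed 0.261 and 0.0205 FPKM. COL1A1 spanned 17.5 to 31.5 FPKM and COL3A1 13.1 to 24.0 FPKM, and neither was called, nor were DCN and CD68. The part of the cell type in the results below was not tested. In bulk libraries, fewer cells of a type and less RNA per cell cannot be told apart.

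Promoter sequence shows where the core letters lie in these genes. Windows of RefSeq (GRCh38.p14) that begin 250 bases upstream of the start site and end 50 bases downstream held 7 of the 10 genes; NDUFA4L2, VEGFA and NDRG1 were not among them. ACGTG and GCGTG were searched on both strands, and 6 of the 7 windows held a match. ACGTG occurred in CA9, BNIP3 and ANKRD37, and GCGTG alone in HIF1A, EPAS1 and ADM. The EGLN3 window held neither set of letters. Over all 27305 windows, 21.6% held ACGTG, 36.3% held GCGTG and 48.4% held either. The 3 stretches with ACGTG are shown. Their genes had lower knockout levels in both libraries, as did ADM and EGLN3, without ACGTG in their windows, and 45.9% of all genes tested. The stretches are read on the strand of the gene, with the matches in capitals, so a match on the other strand reads CACGT or CACGC. CA9 is chr9:35673888-35673917 on the plus strand, within an exon of ARHGEF39, ANKRD37 is chr4:185396661-185396720 on the plus strand, and BNIP3 is chr10:131982004-131982083 on the minus strand.
CA9: cacccagctctcgtttccaatgCACGTaca
ANKRD37: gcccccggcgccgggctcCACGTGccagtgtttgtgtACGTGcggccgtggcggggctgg
BNIP3: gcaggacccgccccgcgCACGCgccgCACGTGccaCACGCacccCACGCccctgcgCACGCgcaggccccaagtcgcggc
The BNIP3 window held 6 matches and the ANKRD37 window 3, counting the palindrome CACGTG once on each strand, while 10.2% of all windows held 3 or more. The CA9 window held 1, from 18 to 14 bases before the start site. A match in these letters is a description and not a binding site.

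All 10 genes had knockout and wild-type levels that did not overlap, with knockout below in 7 and above in 3. Over all genes tested, 45.9% had both knockout libraries below and 40.1% both above. By size alone, 4 of the 10 genes were at least 2-fold lower in knockout (NDUFA4L2, CA9, EGLN3 and ANKRD37), 1 was at least 2-fold higher (HIF1A) and 5 were under 2-fold, where 17.1% of all genes tested were at least 2-fold lower and 15.9% at least 2-fold higher. Nothing is read from these counts because the same contrast chose the genes, and they moved with the scaling. With libraries rescaled to a common sum (TPM), 2 were lower (NDUFA4L2 and CA9) and 3 higher (HIF1A, EPAS1 and VEGFA), beside 559 lower and 4654 higher of all 13246 genes tested. After correction for transcript length and GC content 3 were lower (NDUFA4L2, CA9 and EGLN3) and 0 higher, beside 1175 lower and 1135 higher of 13112 genes. The median log2 fold change of the 10 genes was -0.43, beside -0.09 over all genes tested. Nothing in the labels says that the 2 libraries of a group came from separate cultures. The p-values above and below thus set group differences only against the spread between these libraries, moderated across genes.

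**Figure D1:**
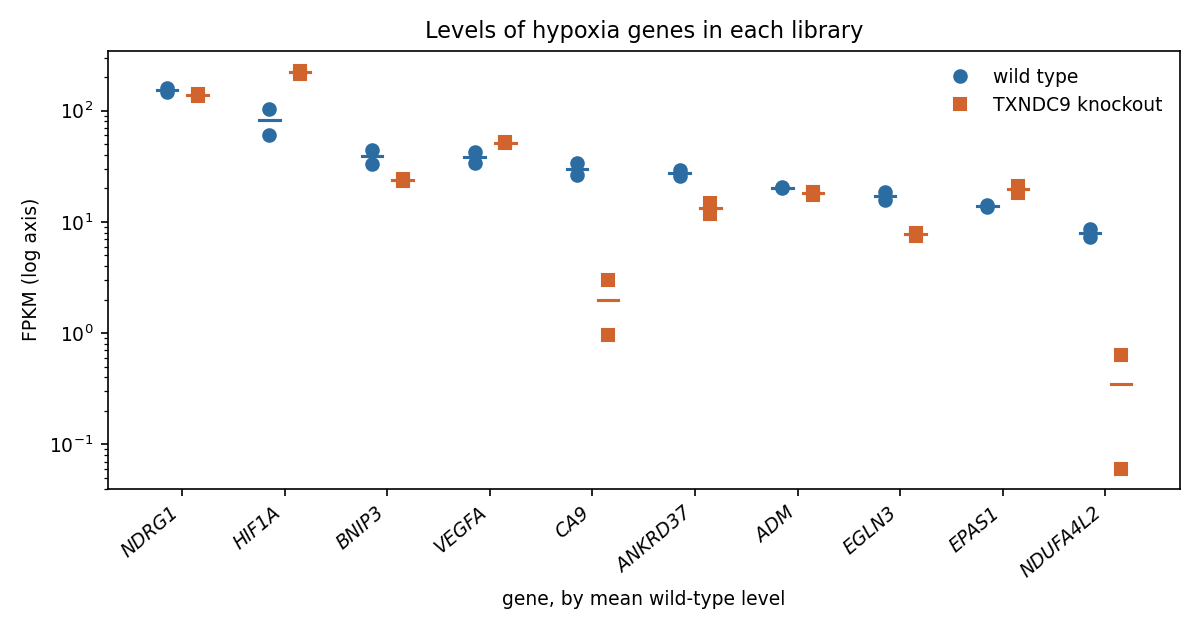
FPKM on a log axis of the 10 hypoxia genes in each library, ordered by mean wild-type level. Circles are the 2 wild-type libraries, squares the 2 TXNDC9 knockout libraries, and bars the means. NDUFA4L2 and CA9 have the widest gaps between groups and also the widest spread between knockout libraries, and HIF1A is the gene with the largest step upward.

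The plot of levels by library shows wild-type cells spanning from NDRG1 (153.5 ± 10.6 FPKM, SD, n = 2) to NDUFA4L2 (7.95 ± 0.853 FPKM, SD, n = 2). In wild type, the libraries of BNIP3 and VEGFA interleaved, as did those of CA9 and ANKRD37, and each other neighbour in the order was separated in both libraries. In knockout cells HIF1A took the first place (221 ± 11.5 FPKM, SD, n = 2), NDRG1 the second, and CA9 and NDUFA4L2 the last 2 places. EPAS1 and ADM interleaved there.

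The factor genes were both higher in knockout cells. HIF1A (ENSG00000100644, chr14:61695513-61748259 of hg38, plus strand, 15 exons in the canonical GENCODE transcript) encodes the α subunit found in most cell types, and it stood at 104 and 59.8 FPKM in wild type, against 213 and 229 FPKM in knockout. The knockout libraries lay close together and the wild-type libraries did not. The mean was 2.69 times the wild-type mean, and the log2 fold change was 1.48 (SE 0.26), the 983rd highest of the genes tested. HIF1A-AS1, an antisense RNA that overlaps HIF1A by 380 bases, was at 0.784 FPKM or below in every library, and the strand setting of the authors' counting is not given in the sources used here. EPAS1 (ENSG00000116016, chr2:46293667-46386697, plus strand, 16 exons), which encodes HIF-2α, stood at 13.5 and 14.3 FPKM in wild type, against 18.4 and 20.8 FPKM in knockout. Its groups did not overlap, and the log2 fold change was 0.49 (SE 0.11). The level of HIF1A over that of EPAS1 was 7.69 and 4.19 in the wild-type libraries and 11.6 and 10.99 in the knockout libraries.

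EGLN3, the prolyl hydroxylase that is itself strongly induced by HIF, was lower in knockout cells. EGLN3 (ENSG00000129521, chr14:33924227-34462774, minus strand, 5 exons) stood at 15.9 and 18.4 FPKM in wild type, against 8.02 and 7.54 FPKM in knockout. Replicates were close in both groups, and the log2 fold change was -1.13 (SE 0.12). Its annotated span overlaps SPTSSA on the same strand, without shared exons of the canonical transcripts. EGLN1, the main hydroxylase in most cells, stood at 1.64 and 1.27 times the EGLN3 level in wild type and at 5.75 and 5.70 times in knockout. The level of EGLN2 over EGLN3 was 3.08 and 3.65 in wild type and 3.60 and 3.75 in knockout.

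The secreted ligands lay on opposite sides of 0 as deposited. VEGFA (ENSG00000112715, chr6:43770184-43786487, plus strand, 8 exons), the main growth factor of vessel sprouting, stood at 42.3 and 34.0 FPKM in wild type, against 50.7 and 52.1 FPKM in knockout, a log2 fold change of 0.44 (SE 0.13) that was 1.12 with TPM and 0.37 after the correction. An antisense RNA, ENSG00000272114, which overlaps VEGFA by 188 bases, exons included, stood at 53.0 and 28.9 FPKM in wild type, against 72.2 and 26.2 FPKM in knockout, above VEGFA in replicate 1 of both groups and below it in replicate 2 of both, and reads within the shared bases cannot be told apart without strand. ADM (ENSG00000148926, chr11:10305073-10307397, plus strand, 4 exons), which encodes the vasodilator peptide adrenomedullin, had the smallest standard error of the 10 genes. It stood at 20.2 and 20.4 FPKM in wild type, against 18.5 and 17.5 FPKM in knockout. Its log2 fold change of -0.17 (SE 0.10) changed sign, to 0.51, both with TPM and after the correction.

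CA9 had the second lowest log2 fold change of the 10 genes. CA9 (ENSG00000107159, chr9:35673928-35681159, plus strand, 11 exons) encodes a membrane carbonic anhydrase that acidifies the outside of hypoxic cells. It stood at 26.3 and 33.9 FPKM in wild type, against 3.03 and 0.971 FPKM in knockout. Both knockout libraries were far below both wild-type libraries and differed from each other by -1.55 on the log2 scale, replicate 2 being lower. The knockout mean was 6.64% of the wild-type mean, and the log2 fold change of -4.03 (SE 0.48) was the 29th lowest of the genes tested. ARHGEF39, which overlaps CA9 on the opposite strand without shared canonical exons, stood at 11.6 and 13.6 FPKM in wild type, against 7.69 and 7.70 FPKM in knockout.

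NDUFA4L2 was lowest of all the members in both groups and had the lowest log2 fold change. NDUFA4L2 (ENSG00000185633, chr12:57234903-57240715, minus strand, 4 exons) encodes a mitochondrial protein related to the cytochrome oxidase subunit NDUFA4, and its induction by HIF is known to lower oxygen use. It stood at 7.34 and 8.55 FPKM in wild type, against 0.633 and 0.0603 FPKM in knockout. The wild-type libraries were alike, and the knockout libraries, both under 1 FPKM, differed by -2.19 on the log2 scale of FPKM + 0.1. The knockout mean was 4.36% of the wild-type mean, and the log2 fold change of -4.55 (SE 0.69) was the 22nd lowest of the genes tested. The size of this fold change depends on the constant added before taking logarithms, and it was -2.76 with 1 and -5.22 with 0.01 in place of 0.1. NDUFA4 itself was abundant: its level over that of NDUFA4L2 was 12.6 and 16.7 in wild type and 127 and 1337 in knockout. NDUFA4L2 overlaps, by 33 bases that include exons, SHMT2 on the opposite strand, which stood at 156 and 153 FPKM in wild type, against 104 and 107 FPKM in knockout.

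BNIP3, ANKRD37 and NDRG1 completed the set. BNIP3 (ENSG00000176171, chr10:131967684-131981967, minus strand, 6 exons), a receptor for removal of mitochondria by autophagy, stood at 44.4 and 33.2 FPKM in wild type, against 23.3 and 24.1 FPKM in knockout. The wild-type libraries varied more than the knockout libraries, and the log2 fold change was -0.69 (SE 0.16). The level of BNIP3L, its close relative, over that of BNIP3 was 0.446 and 0.562 in wild type and 0.715 and 0.756 in knockout. ANKRD37 (ENSG00000186352, chr4:185396021-185400628, plus strand, 5 exons), an ankyrin repeat protein of largely unknown role, stood at 26.1 and 29.1 FPKM in wild type, against 14.7 and 11.7 FPKM in knockout. Its groups did not overlap, and the log2 fold change was -1.06 (SE 0.14). UFSP2, which overlaps ANKRD37 by 1092 bases on the opposite strand, exons included, did not exceed 6.86 FPKM in any library.

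NDRG1 (ENSG00000104419, minus strand, 16 exons), a stress-induced protein linked to differentiation and growth arrest, stood at 161 and 146 FPKM in wild type, against 135 and 140.4 FPKM in knockout. The gap between the groups was small beside the level, with a log2 fold change of -0.16 (SE 0.11), and it changed sign to 0.52 with TPM and to 0.044 after correction for length and GC content.

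**Figure D2:**
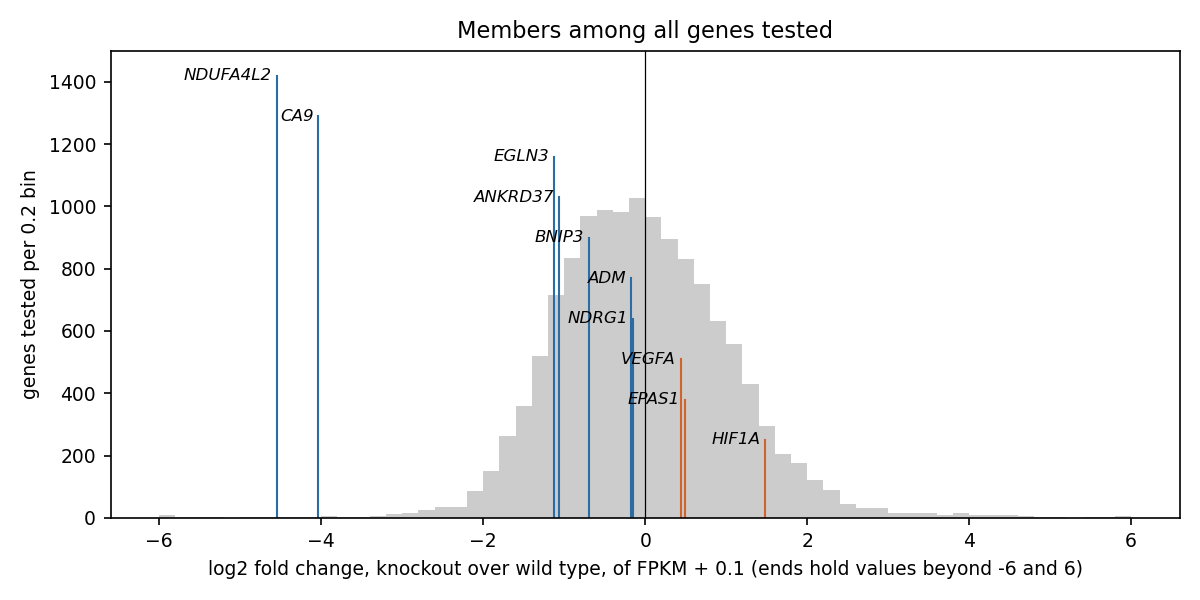
Number of genes tested per 0.2 bin of log2 fold change, knockout over wild type, of FPKM + 0.1, with a vertical line for each of the 10 genes (blue below 0, orange above 0; line heights carry no value). NDUFA4L2 at -4.55 and CA9 at -4.03 lie in the far left tail, and the other 8 genes, from -1.13 to 1.48, lie within the bulk.

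The histogram of all genes tested places the 10 genes in the whole table, in which 2021 genes (15.3%) were called lower and 1885 (14.2%) higher (limma, adjusted p under 0.01 and at least 2-fold). These totals moved with the scaling: they were 447 lower and 4380 higher after rescaling to TPM and 2601 lower and 1452 higher after centring on the median. With either knockout library left out, 0 genes were called by limma, with smallest adjusted p values of 0.0160 without replicate 1 and 0.0232 without replicate 2. The FPKM sums were 805815.9 and 971102.2 in wild type and 535973.4 and 568279.5 in knockout, and rescaling to TPM moved the median log2 fold change of all genes from -0.09 to 0.59. Rescaling multiplies each library by 1 factor, so relative to the median only the added 0.1 could move the members. BNIP3 was at -0.61 as deposited and -0.60 with TPM, and EGLN3 at -1.04 and ADM at -0.08 in both. NDUFA4L2 moved the most, from -4.46 to -4.73. After correction for length and GC content, also relative to the median, NDUFA4L2 was at -3.52, EGLN3 at -1.12 and ADM at 0.56. CA9 then went from -3.95 to -3.12 and HIF1A from 1.57 to 0.99. Fold changes also varied with transcript length (Spearman rho = 0.495) and GC content (rho = -0.462) across 13112 genes, and genes are no independent replicates. The canonical transcripts of the members ran from 784 nucleotides in ANKRD37 to 5155 in EPAS1.

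**Figure D3:**
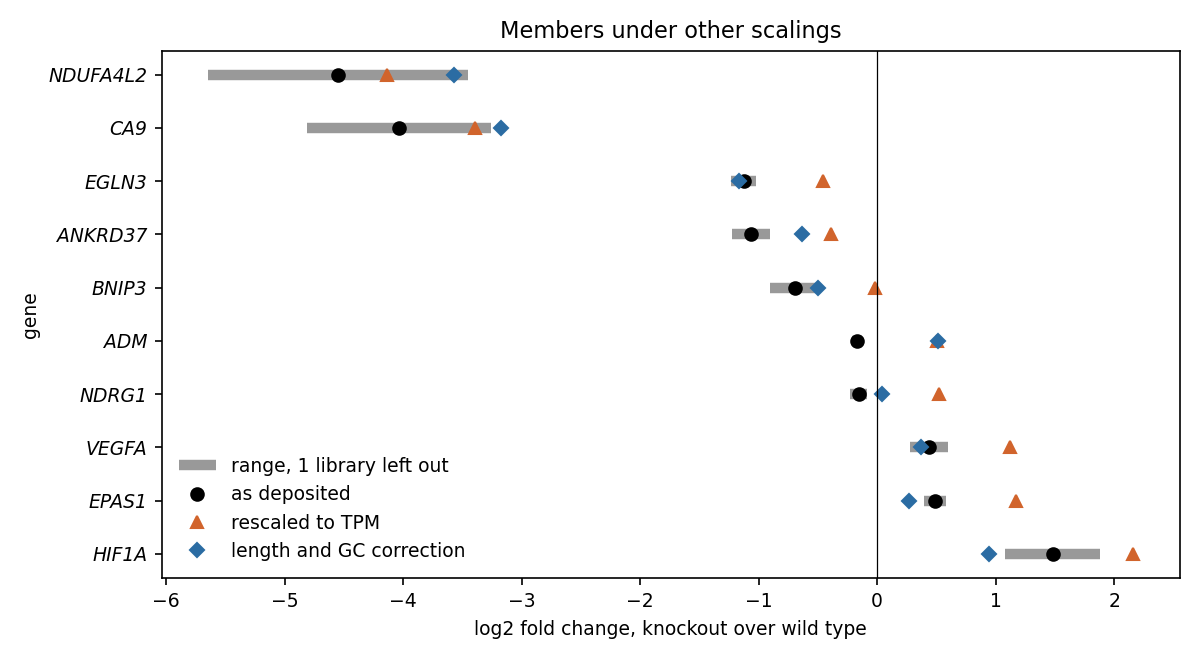
Log2 fold change of each of the 10 genes as deposited (circles), rescaled to TPM (triangles) and after correction for transcript length and GC content (diamonds). Grey bars span the values with 1 library left out, and ADM and NDRG1 are the 2 genes with markers on both sides of 0.

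The plot of other scalings shows the settings gene by gene. With TPM, NDUFA4L2 was at -4.14, CA9 at -3.39, HIF1A at 2.16, EPAS1 at 1.17 and VEGFA at 1.12, whereas EGLN3 was at -0.45, ANKRD37 at -0.39 and BNIP3 at -0.015. After correction for length and GC content, NDUFA4L2 was at -3.57, CA9 at -3.17, EGLN3 at -1.17 and ANKRD37 at -0.63. HIF1A was then at 0.95, EPAS1 at 0.27 and VEGFA at 0.37. Leaving out 1 library at a time gave -5.65 to -3.45 for NDUFA4L2, -4.81 to -3.26 for CA9 and 1.08 to 1.88 for HIF1A.

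The other genes of the pathway were taken from lists fixed by symbol. Among 17 genes of oxygen sensing and HIF partners, 15 were tested, of which 2 fell (13.3%, beside 15.3% of all genes tested), 2 rose (13.3%, beside 14.2%) and 11 were not called. Genes not called, here and below, missed the 2-fold size, the adjusted p or both. The median log2 fold change was 0.67, and it was 1.349 with TPM and 0.071 after correction for length and GC content. EGLN2, a hydroxylase of the HIF-α subunits, fell from 49.0 and 67.1 FPKM to 28.9 and 28.3 FPKM, a log2 fold change of -1.002 (SE 0.16, adjusted p = 0.00312, limma with Benjamini-Hochberg adjustment) that lay at the 2-fold threshold. ELOB, a subunit of the VHL ligase, fell with a log2 fold change of -1.62 (adjusted p = 0.00148, limma with Benjamini-Hochberg adjustment). The coactivators EP300 and CREBBP rose, EP300 from 2.87 and 2.12 FPKM to 10.9 and 12.4 FPKM and CREBBP from 4.19 and 4.44 FPKM to 13.0 and 12.7 FPKM, with log2 fold changes of 2.19 and 1.55 (adjusted p = 5.50e-04 and 5.12e-04, limma with Benjamini-Hochberg adjustment). After correction for length and GC content both of these calls were kept, and the calls of EGLN2 and ELOB were lost. EGLN1, VHL, HIF1AN, which hydroxylates an asparagine of HIF-α, and ARNT had log2 fold changes of 0.85, 0.82, 0.67 and 0.77, all under 2-fold. Their adjusted p values were 0.00139, 0.00548, 0.00242 and 0.00180 (limma with Benjamini-Hochberg adjustment), so only the size kept them from the call. With TPM all of these 4 were called higher, at 1.53, 1.49, 1.349 and 1.45, and after the correction HIF1AN changed sign, to -0.20. With TPM, 0 of the 15 were called lower and 8 higher, beside 447 lower and 4380 higher of all 13246 genes tested.

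Other HIF targets moved in both directions. Of 78 such genes in 2 lists, 69 were tested. Of these, 9 fell (13.0%, beside 15.3% of all genes tested), 4 rose (5.80%, beside 14.2%) and 56 were not called. Both knockout values were under both wild-type values for 50.7% of them and over them for 34.8%, beside 45.9% and 40.1% of all genes, and the median log2 fold change was -0.14, beside -0.09. The lists were written with results of these data known, and no difference from other genes was tested. With TPM the counts were 3 lower and 18 higher, beside 447 and 4380 of all 13246 genes tested. After correction for length and GC content the counts were 5 lower and 1 higher, beside 969 and 841 of 13112 genes. Without wild type replicate 1 they were 8 and 7. Without knockout replicate 1 or replicate 2 they were 0 by limma, where an unadjusted p under 0.05 with a 2-fold change gave 8 and 6 lower and 4 and 5 higher.

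Among the 25 targets of glucose use, all tested, 3 glycolytic enzymes fell (3 of 25, beside 15.3% of all genes tested), 0 rose (beside 14.2%) and 22 were not called. ALDOA (aldolase) had a log2 fold change of -1.18, TPI1 (triosephosphate isomerase) of -1.22 and GAPDH (glyceraldehyde-3-phosphate dehydrogenase) of -1.20, with adjusted p values of 0.00290, 0.00156 and 0.00695 (limma, Benjamini-Hochberg adjustment). None of these 3 calls was kept with TPM or after correction for length and GC content. SLC2A3, a glucose transporter named here after its values were seen, went from -0.89, which was not called, to -1.22, which was called lower, after the correction. The highest log2 fold change in this list was 0.96, under 2-fold.

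Of 44 other targets tested, 6 fell (13.6%, beside 15.3% of all genes tested), 4 rose (9.09%, beside 14.2%) and 34 were not called. MIR210HG, the host transcript of a hypoxia-induced microRNA, fell from 9.69 and 12.7 FPKM to 1.79 and 1.87 FPKM (log2 fold change -2.54, adjusted p = 5.12e-04, limma with Benjamini-Hochberg adjustment). SPAG4, a nuclear envelope protein, fell from 5.75 and 8.46 FPKM to 1.01 and 1.37 FPKM (-2.47, adjusted p = 7.80e-04, limma). FAM162A, a mitochondrial protein, fell from 94.9 and 121 FPKM to 36.9 and 38.0 FPKM (-1.51, adjusted p = 6.64e-04, limma). These 3 calls were kept after correction for length and GC content, and that of FAM162A was lost with TPM, at -0.84. ANGPTL4, a secreted inhibitor of lipoprotein lipase, fell from 1.55 and 2.40 FPKM to 0.187 and 0.374 FPKM, a log2 fold change of -2.46 (adjusted p = 0.00507, limma with Benjamini-Hochberg adjustment) whose call was kept with TPM and lost after the correction. TFRC, the transferrin receptor, rose from 94.3 and 73.9 FPKM to 386 and 387 FPKM (2.21, adjusted p = 5.12e-04, limma) and was the 1 rise kept after the correction, whereas the calls of MET (1.22), WSB1 (1.18) and ERRFI1 (1.05) were lost; with TPM all 4 rises were kept.

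**Figure D4:**
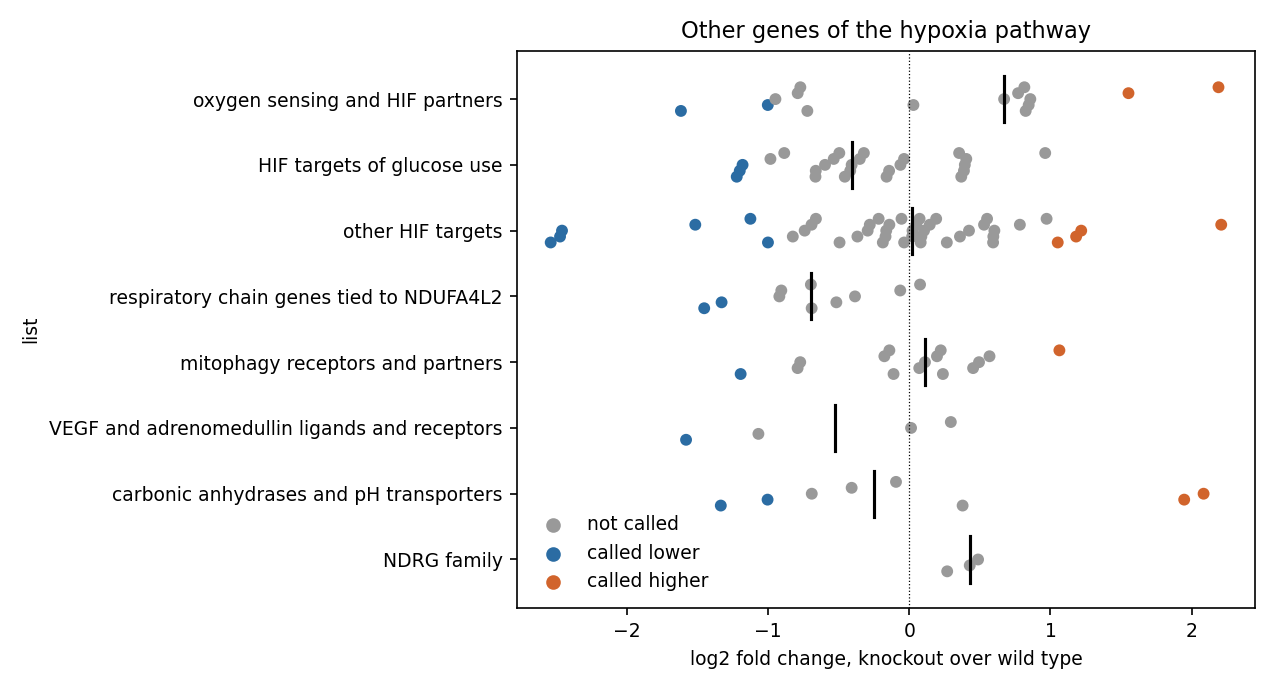
Log2 fold change, knockout over wild type, of each tested gene in the 8 lists of other pathway genes, 1 point a gene and a bar for the median. Called genes are coloured, blue lower and orange higher; calls of the 2 HIF target lists number 9 lower and 4 higher of 69, and the medians of the lists run from -0.69 to 0.67 as deposited; the lowest of these (respiratory chain) was at -0.015 with TPM and the highest (oxygen sensing) at 0.071 after correction for length and GC content.

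The plot of pathway lists sets the smaller lists beside these. Of the respiratory chain genes tied to NDUFA4L2, 10 were tested, 2 fell (20.0%, beside 15.3% of all genes tested) and 0 rose (beside 14.2%). The median of the log2 fold changes was -0.69 as deposited, -0.015 with TPM and -0.43 after the correction. COX4I1, the ubiquitous isoform of a cytochrome oxidase subunit, and HIGD2A, an assembly factor, fell with log2 fold changes of -1.33 and -1.45 (adjusted p = 0.00252 and 0.00107, limma with Benjamini-Hochberg adjustment), and neither call was kept with TPM or after the correction. NDUFA4 stood at 92.8 and 143 FPKM in wild type, against 80.4 and 80.6 FPKM in knockout, with an adjusted p of 0.0722 (limma, Benjamini-Hochberg adjustment). COX4I2, the isoform induced in hypoxia, was listed at 0 in all 4 libraries.

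Of 15 mitophagy genes tested, 1 fell (6.67%, beside 15.3% of all genes tested) and 1 rose (6.67%, beside 14.2%). FKBP8 fell (log2 fold change -1.19), and NBR1, an autophagy cargo receptor, rose (1.06). Both calls were lost after the correction, and with TPM that of NBR1 was kept and that of FKBP8 was not. The other 13 genes, BNIP3L (-0.14) among them, were not called. Among 14 ligands and receptors of the VEGF and adrenomedullin systems, only 4 were tested. VEGFB fell from 69.0 and 86.8 FPKM to 26.8 and 24.9 FPKM (log2 fold change -1.58, adjusted p = 6.01e-04, limma with Benjamini-Hochberg adjustment), a call that was lost with TPM and after the correction. With a replicate block, 2 genes of this list were called lower, beside 2146 of all 13246 genes tested. The VEGF receptor genes FLT1 and KDR and the adrenomedullin receptor partners RAMP2 and RAMP3 were listed at 0 in all 4 libraries, while CALCRL, the adrenomedullin receptor, did not exceed 0.0857 FPKM and RAMP1 0.158 FPKM.

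Of 8 carbonic anhydrases and pH transporters tested, 2 fell and 2 rose. BSG (log2 fold change -1.33), the chaperone of lactate transporters, and CA11 (-1.003), a catalytically inactive relative, fell, and neither call was kept with TPM or after the correction. SLC4A7, a bicarbonate transporter, rose from 3.56 and 3.49 FPKM to 15.004 and 15.58 FPKM, and CA5B, a mitochondrial carbonic anhydrase, from 5.78 and 4.94 FPKM to 19.7 and 22.2 FPKM, with log2 fold changes of 2.08 and 1.95 (adjusted p = 4.86e-04 and 5.12e-04, limma with Benjamini-Hochberg adjustment), and both calls were kept in both settings. CA12, the other tumour-associated membrane enzyme, did not exceed 0.0885 FPKM. The 3 relatives of NDRG1 had higher knockout levels in both libraries, as did 40.1% of all genes tested. Their log2 fold changes were 0.49 in NDRG3, 0.27 in NDRG2 and 0.43 in NDRG4. By limma, 0 of them was called as deposited, and 2 were called higher with TPM, as were 4380 of all 13246 genes tested.

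Among the 69 HIF targets tested, 59 had a promoter window. Either set of core letters occurred in 45 of them (76.3%, beside 48.4% of all windows), in 7 of 8 called lower, 3 of 4 called higher and 35 of 47 not called. The letters were thus present in most windows of these targets whether or not a gene was called. The share of all windows also covers genes that were not tested, so it is not from a like set and was not compared by a test.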

How the data were processed

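RNA-seq libraries of 2 wild-type and 2 TXNDC9 knockout samples were used. Per the labels, the authors used TopHat2, Cufflinks, Cuffdiff and hg38, and they deposited FPKM per gene and library; versions, strand setting and library normalization are not given in the sources used here. The authors' columns of fold changes, p-values and q-values hold their own comparison and were not used. Of 231916 lines, 57979 held values. Identifiers on the lines were out of register with the symbols and were taken in order without repeats, after which 10 of 10 members had the identifier that GENCODE release 44 gives them.

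Genes with an average FPKM above 1 were fitted on log2(FPKM + 0.1) with limma 3.58.1 (trend, R 4.3.3) and Benjamini-Hochberg adjustment over 13246 genes, without a block. Fold changes on this scale understate those of low genes. Alternatives were other pseudocounts, filters and thresholds, TPM, median centring, no trend, a loess correction for canonical length and GC content (span 0.3), the replicate block and leaving out each library. The limma call was checked on simulated data with equal noise for every gene and no trend with length or GC content. The other steps were not simulated. The table holds no counts. At most 4.53% of low genes shared 1 ratio between 2 libraries, so no step worth 1 read was found and depth is unknown. An exact permutation test of 2 against 2 libraries cannot go below p = 0.33.

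The members and the lists were chosen with earlier results of these data known. Named were all members, called list genes (up to 4 in each direction by size), fixed genes of the oxygen sensing, respiratory chain and receptor lists, and TXNDC9; any other gene was named after its values were seen. A lineage marker first listed is not reported here.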

Additional observations from a re-analysis of the deposited data

How the results depend on the processing

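Counts of genes called lower and higher were 2021 and 1885. With the replicate block they were 2146 and 1960, and 9 and 4 for HIF targets; deviations of same-numbered libraries correlated at -0.0904, so the numbers were not taken as pairs, and ligand and receptor falls went from 1 to 2. TPM gave 447 and 4380 (HIF targets 3 and 18), and the correction for length and GC content 969 and 841 (5 and 1), or 975 and 841 (5 and 1) with the replicate block. An average FPKM above 5 gave 1220 higher. Without a filter 5 HIF targets were lower. Leaving out 1 library gave 0 to 2633 lower and 0 to 2136 higher, and 0 to 10 and 0 to 7 for HIF targets. Without knockout replicate 1 or 2 the counts were 0, with smallest adjusted p values of 0.0160 and 0.0232 (limma); the lone knockout library was assumed to vary like the wild type. At an unadjusted p under 0.05 with a 2-fold change, these fits gave 2022 and 2290 lower and 2066 and 1973 higher, and 8 and 6 HIF targets lower and 4 and 5 higher. Without wild type replicate 1, 7 HIF targets were higher. The cause was not tested.

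Of the members, ADM and NDRG1 changed sign. ADM was at 0.51 with TPM and at 0.51 after the correction with or without the replicate block, and NDRG1 at 0.52 and 0.044. The other 8 kept their sign under every alternative run; NDUFA4L2 did not pass the filter of an average above 5. With unknown depth, the counting error of the NDUFA4L2 knockout levels cannot be given.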
